A study of Gallus gallus with 8 samples.

Results

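The m6A landscape of the LPS-treated broiler liver is the list of 5938 peaks that the authors deposited for immunoprecipitated (IP) against input RNA of LPS-injected birds, after 1 exact repeat among its 5939 entries was dropped. These are 5938 of the 13751 peaks in the LPS and control lists together, and they lie in 3992 genes, of which 3984 are among the 13427 genes of the expression table. Every remaining entry was kept, and no measured value was used here to filter them. The authors' own peak calling of IP against input had already selected them. LPS birds were 21-day-old broilers (Gallus gallus) that received 1 mg/kg of lipopolysaccharide (Escherichia coli 055:B5), a bacterial outer membrane molecule recognised by the innate immune system, into the peritoneal cavity 2 h before sampling. Control birds of the same age received the same volume of PBS. Each treatment had 2 input libraries of fragmented polyadenylated liver RNA and 2 libraries of the same RNA after immunoprecipitation with an antibody against m6A, 8 libraries in all. The sources used here do not give breed, sex or any pooling of birds. The question is which messages of the inflamed liver carried the mark, and how peaks went with expression.

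N6-methyladenosine (m6A) is a methyl group on internal adenosines of messenger RNA. A writer complex built around a METTL14-containing core, with WTAP as an adaptor, places it, mostly near stop codons and in long internal exons. The erasers FTO and ALKBH5 can remove it, and readers of the YTH family bind it and can shorten the life of a message. The liver makes most plasma proteins, and after LPS it produces acute phase proteins while cytokines, NF-kB inhibitors and SOCS proteins start and then restrain the inflammatory response.

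Levels come from the input libraries, in FPKM (fragments scaled by transcript length and by all mapped fragments), and enrichment comes from the peak list, where the authors give each peak a fold of IP over input. There is 1 list for each treatment, so a peak has no replicate, its fold enrichment and p-value describe that list alone, and a gene without a listed peak may have had enrichment under the authors' calling limit. FPKM sums were 547260 and 560738 in LPS libraries and 539984 and 568721 in control libraries; no read totals were used here, and the depth of the IP libraries is unknown. The tissue check held: summed levels of 15 hepatocyte markers were 87967.9 and 87761.5 FPKM in LPS libraries and 79503.6 and 75508.1 FPKM in control libraries. Members went both ways: of 14 tested, 4 rose and 3 fell (5 and 2 with libraries scaled to equal medians). The 12 macrophage markers summed to 1029.9 and 957 FPKM in LPS libraries, below the 1413 and 1625.6 FPKM of control libraries, and 10 of the 12 fell (7 with libraries scaled to equal medians). Their part in the genes that fell was not tested. Sums of the other marker lists were 50.3 and 19.4 FPKM in LPS libraries against 16.7 and 31.5 FPKM in control libraries for heterophils, 62.4 and 61.8 against 73.1 and 95.4 FPKM for T, NK and B cells, 456 and 582 against 379 and 392 FPKM for erythrocytes and thrombocytes, and 290 and 247 against 277 and 301 FPKM for endothelial and stellate cells. Of the 14 T, NK and B cell markers 1 was listed at 0 in both LPS libraries, as was 1 of 9 for erythrocytes and thrombocytes. In whole tissue, fewer cells of a type and less RNA per cell cannot be told apart. Between LPS and control input, 1014 of 9484 tested genes rose (10.7%) and 2982 fell (31.4%) by limma at a Benjamini-Hochberg adjusted p under 0.05. With libraries scaled to equal medians the split was 1341 and 1594, and the median over tested genes of the log2 fold change was -0.34 as deposited and -0.07 after that scaling.

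The LPS peaks were mostly narrow and moderately enriched. The fold enrichment of a peak ran between 1.17 and 2240, with a median of 4.985 and quartiles of 3.03 and 9.18. It was under 2 for 7.65% of peaks and 10 or more for 22.6%, and it reached 100 in 66 peaks. The listed p-value was 0 for 732 peaks, at most 1e-10 for 5382, and 0.00036 at its largest. A peak covered a median of 237 exonic bases (quartiles 150 and 331), against a median of 241 for control peaks, and 2042 LPS peaks (34.4%) ran over at least 2 exon blocks. The LPS list covered 1661940 bases in all and the longer control list 2484572.

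By the authors' annotation, 2505 LPS peaks (42.2%) lay in a 3′ UTR, where the median fold enrichment was 5.53. Internal exons held 1846 (31.1%), with the lowest median enrichment of the 6 classes, 4.04. A further 625 (10.5%) lay in last exons with a median of 4.82, 384 (6.47%) in first exons with 5.31, and 157 (2.64%) in single-exon genes with 6.27. The 421 peaks (7.09%) in a 5′ UTR had the highest median, 6.56. The layout was much the same in the control list, with 45.2% in 3′ UTRs, 28.7% in internal exons and 7.67% in 5′ UTRs. Within 1000 bases of the annotated transcript end lay 2630 LPS peaks (44.3%), with a median enrichment of 5.735, while those farther away had 4.445.

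**Figure D1:**
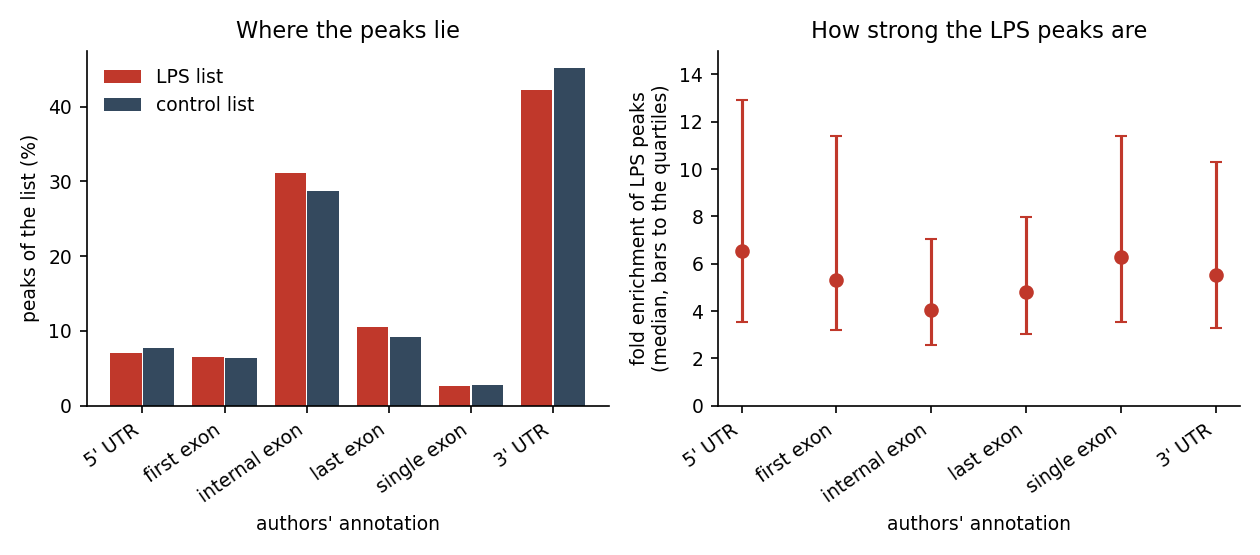
Left, the share of peaks in each annotated class for the LPS list (red) and the control list (dark). Right, the median fold enrichment of the LPS peaks in each class, with bars to the quartiles. 3′ UTRs held the largest share in both lists (42.2% of LPS peaks), and the median enrichment was lowest in internal exons (4.04) and highest in 5′ UTRs (6.56).

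The share of genes with a peak climbed with level up to about 30 FPKM, and much less above. Of the 9024 genes at 1 FPKM or more in LPS livers, 3858 had an LPS peak (42.8%). The share was 2.86% of the 4403 genes under 1 FPKM, 17.3% of those at 1 to 3 FPKM, 40.2% at 3 to 10 FPKM and 55.5% at 10 to 30 FPKM. It then stayed between 60.5% and 71.4% in the 4 classes above, and 50 of the 70 genes at 1000 FPKM or more had a peak. Among abundant genes, set at 100 FPKM or more, 408 of 635 had a peak (64.3%), so 227 of the most abundant messages of the LPS liver had none listed. Read against control levels, the control list gave higher shares below 100 FPKM, such as 26.9% at 1 to 3 FPKM and 61.5% at 10 to 30 FPKM, and similar ones above. The LPS list is shorter than the control list (5938 against 7813 peaks), and the part that IP depth has in this was not tested.

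**Figure D2:**
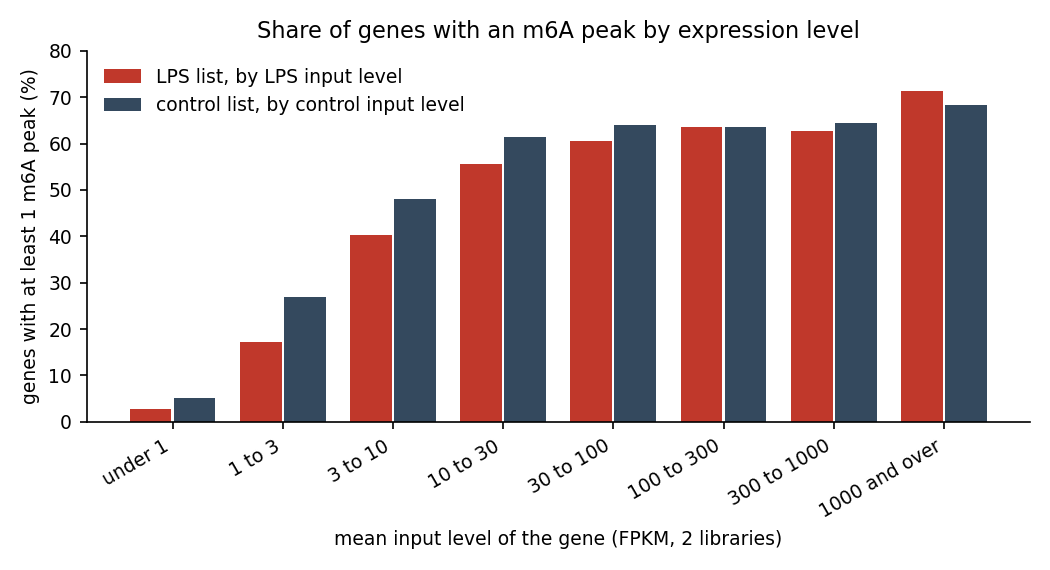
Share of genes with at least 1 listed m6A peak in each class of mean input level, for the LPS list by LPS level (red) and the control list by control level (dark). In LPS livers the share climbs to 55.5% at 10 to 30 FPKM and stays between 60.5% and 71.4% above that.

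Enrichment and expression were only loosely related. Across the 3858 genes at 1 FPKM or more with a peak, the Spearman correlation between the LPS level and the highest fold enrichment of a gene was -0.16, and it was -0.19 over the 2543 genes with exactly 1 peak. By region it was -0.16 for 2446 peaks in 3′ UTRs, -0.29 for 406 in 5′ UTRs and -0.41 for 1807 in internal exons. These are correlations across genes or peaks that share libraries, depth and caller, and genes are not independent replicates. The input level is also the denominator of the enrichment. The correlation of level with the number of peaks of a gene was 0.08. The median of the highest enrichment was 7.49 for genes at 1 to 3 FPKM and 3.88 for those at 1000 FPKM or more. Peaks of very abundant genes lay more often in 3′ UTRs: 60.3% of peaks at 1000 FPKM or more, against 34.5% at 1 to 3 FPKM.

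Leaving out genes known only by an ID or an open reading frame number, the 8 most enriched peaks were in genes of 10.1 to 20.6 FPKM, apart from BF1. The peak of VWCE, a gene for a secreted von Willebrand factor C and EGF domain protein, had a fold enrichment of 2240 over 899 bases of its 3′ UTR on the plus strand (chr5:410198-411096 in the authors' build, which the sources used here do not name) at an LPS level of 14.5 FPKM. The second was in BF1, an MHC class I alpha chain that presents peptides to T cells, with 1440 over 1170 bases (chr16:71960-73306, minus strand) at 316 FPKM. SF3A2, a splicing factor, followed at 937 and ELN, the elastin gene, at 772, both in the 3′ UTR. DNAAF2 had 522 in the internal exon numbered 2 of 3, DAPK3, a kinase of cell death signalling, 503 in its 3′ UTR, IGSF9 487 in an internal exon, and MAPK14, the stress kinase p38 alpha, 376 in its 5′ UTR. Each of these 8 peaks shared bases with a control peak. Between ELN and DNAAF2 ranked an internal exon peak of C6orf132, an uncharacterised open reading frame, with 748; its level was 40.9 and 35 FPKM in LPS libraries against 8.79 and 13.5 FPKM in control libraries, and it rose (log2 fold change 1.70, adjusted p = 0.00117). MHC class I genes are near-identical copies, so the value of BF1 is uncertain.

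**Figure D3:**
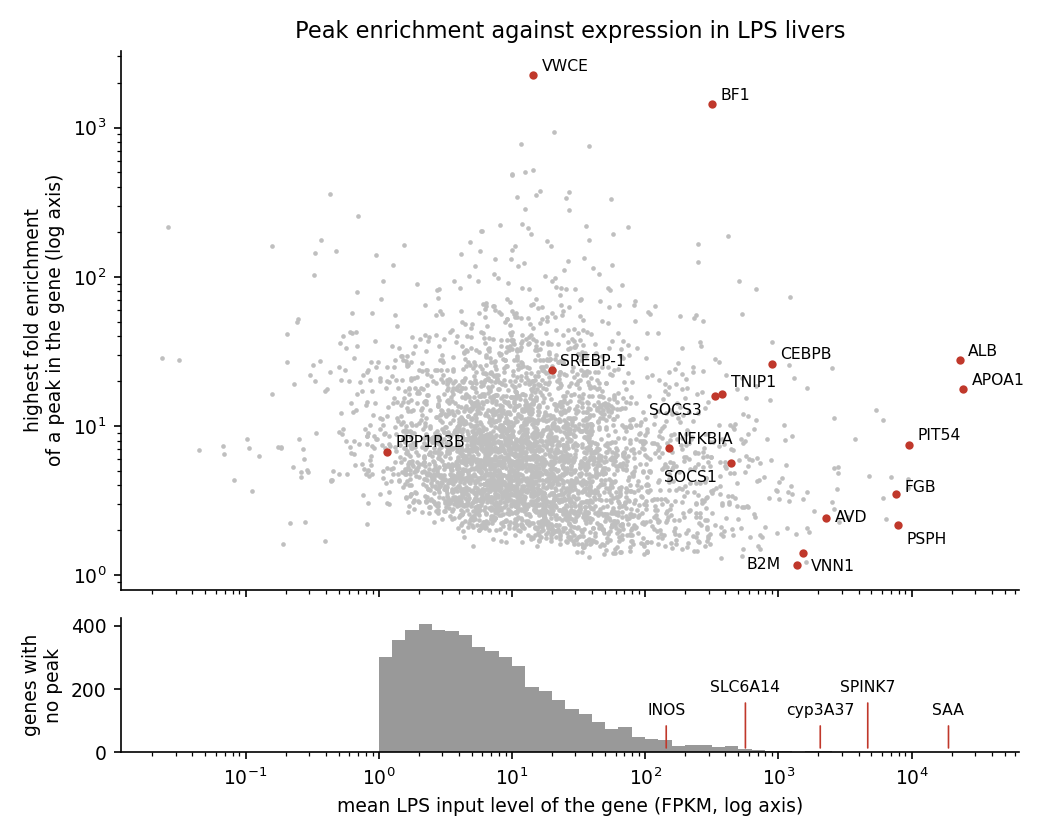
Top, the highest fold enrichment of a peak in each gene with an LPS peak against its mean LPS level (both axes log), with named genes in red. Bottom, the number of genes at 1 FPKM or more without an LPS peak by level, with 5 of them marked. ALB and APOA1 stand at the high end of level, with enrichments of 27.7 and 17.7, while SAA, of similar level, had no peak.

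Most methylated genes had 1 peak. Of the 3992 genes, 2661 (66.7%) had 1 peak, 935 (23.4%) had 2, 269 (6.74%) had 3 and 127 (3.18%) had 4 or more, a mean of 1.49. The genes with most peaks included several for chromatin and nuclear proteins at low or middling levels. TNRC18 had 11 peaks at 11.8 and 11.7 FPKM in LPS libraries, against 12.3 and 17.5 FPKM in control libraries. ANKRD11, a chromatin regulator, had 9 peaks with enrichments of 3.37 to 14.4, of which 6 lay in the same internal exon, numbered 9 of 13. BAHCC1 had 8, the strongest at 48.6 in its first exon, and NES, which encodes the filament protein nestin, had 8 that reached 83.1 at a mean of only 2.83 FPKM, some of them overlapping each other. FTSJ3 and TCOF1, both of ribosome production, had 7 each. The TCOF1 peaks are numbered by a model of 2 exons and another of 17, so its count depends on the gene model. UBE4A also had 8, but they are spread between positions 4392790 and 4561156 of chromosome 24 and carry the exon numbering of more than 1 transcript model, so its count depends on the gene model. Over the LPS list, 128 peaks shared bases with another LPS peak.

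The most abundant messages of the LPS liver were split between strong, weak and no listed enrichment. APOA1, the main protein of high-density lipoprotein, stood at 23588.8 and 25372.8 FPKM in LPS libraries against 27320.3 and 25881 FPKM in control libraries. It had 2 LPS peaks, with 17.7 in the 3′ UTR over 616 bases (chr24:5106238-5106853, minus strand) and 2.61 in the 5′ UTR. ALB, serum albumin, stood at 22583.8 and 23323.7 FPKM in LPS libraries against 22934.5 and 16539.5 FPKM in control libraries, and its 3′ UTR peak of 330 bases (chr4:50268157-50268486, plus strand) had 27.7. The groups overlapped for ALB and differed little for APOA1, and neither passed the test. HPX, which binds heme, had 10.9, while FTH1, the ferritin heavy chain, reached 3.82 in its 5′ UTR and VTN, vitronectin, 3.28.

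Several carriers at 2214.5 to 3506.3 FPKM on average in LPS livers, below the levels of those genes, had no LPS peak and no control peak. GC, the vitamin D binding protein, stood at 3688.5 and 3324.2 FPKM in LPS libraries against 2702 and 3575.8 FPKM in control libraries. AHSG, fetuin A, stood at 3472.3 and 2265.2 FPKM in LPS libraries, below the 6193.2 and 7102.6 FPKM of control libraries, and fell (log2 fold change -1.24 ± 0.24 (SE), adjusted p = 0.00539). The retinol carrier RBP4 and TTR, transthyretin, also had none, at mean LPS levels of 2343.8 and 2214.5 FPKM. TTR passed the test for a fall as deposited but not in 4 of 8 alternatives, with adjusted p between 2.39e-05 and 0.211. Of the 17 plasma carriers at 1 FPKM or more, 11 had an LPS peak (64.7%), against 42.8% of all genes there. At 100 FPKM or more it was 10 of 14, against 64.3% of all genes there. Of 17 tested, 6 fell and 0 rose, against 31.4% and 10.7% of all tested genes, and with equal medians 3 fell.

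Ribosomal protein messages, all but 1 of them at 100 FPKM or more, had a peak in 34 of 61 cases (55.7%). Of all genes at that level 64.3% had one. RPL19 had 10.1 in its 3′ UTR, RPLP1 3.63 and RPSA 3.53, while RPS3A, RPL27 and RPLP0, at means of 1373.9, 1349.4 and 1164.6 FPKM, had none. Of 61 ribosomal protein genes tested, 0 rose and 0 fell as deposited, against 10.7% and 31.4% of all tested genes. With equal medians 1 rose. The respiratory chain had a peak in 25 of 52 members (48.1%), and in 21 of the 33 at 100 FPKM or more, near the 64.3% of all abundant genes. At 10 to 100 FPKM 4 of 18 had one, against 57.3% of all genes there. ATP5B, the catalytic beta subunit of ATP synthase, had 73.4 in its 3′ UTR at 1226.5 and 1231.2 FPKM in LPS libraries, while ATP5A1, the alpha subunit, had none at a mean of 465 FPKM. Complement and coagulation factors had a peak in 23 of 31 (74.2%). At 100 FPKM or more it was 17 of 20, against 64.3% of all genes there. At 10 to 100 FPKM it was 5 of 10, against 57.3%. The inhibitor SERPING1 led with 36.5, before C2 with 24.3 and prothrombin, F2, with 21.1. C4 had 6 peaks, and C8A, C8G and SERPIND1, of 350 to 542 FPKM, had none.

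Positive acute phase proteins, which the liver secretes in more than usual amounts during inflammation, mostly carried peaks, but SAA, the most abundant of those that rose, did not. In 13 of 16 members at 1 FPKM or more a peak was listed (81.2%), against 42.8% of all genes there. At 100 FPKM or more it was 12 of 15, against 64.3% of all genes there. Of 16 tested, 12 rose and 1 fell, against 10.7% and 31.4% of all tested genes. A peak was listed for 9 of the 12, against 58.3% of all raised genes. SAA, serum amyloid A, stood at 17120.5 and 20758.6 FPKM in LPS libraries, far above the 176 and 444 FPKM of control libraries (log2 fold change 6.07 ± 0.39, adjusted p = 3.88e-05), and had no peak in the LPS list or in the control list. The other members without a peak were the metallothionein MT1, at 1144.3 and 1234 FPKM in LPS libraries against 84.5 and 86.9 FPKM in control libraries, and CP, the copper carrier ceruloplasmin, at 282 and 258 FPKM against 34 and 27.8 FPKM. Both rose, with log2 fold changes of 3.78 ± 0.16 (adjusted p = 9.88e-06) and 3.09 ± 0.18 (adjusted p = 2.73e-05).

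The fibrinogen genes, which encode the chains of the clotting protein, all had peaks of low enrichment. FGB stood at 7602.7 and 7755.4 FPKM in LPS libraries against 3467.8 and 2901.5 FPKM in control libraries and had 3 peaks of 1.33 to 3.51. FGA stood at 6922 and 7173.4 FPKM against 3341.8 and 3528.7 FPKM and had 3 of 2.69 to 4.59 over 780, 450 and 990 bases. FGG stood at 3311.3 and 3348.5 FPKM against 1863.9 and 1552.5 FPKM and had 1 peak of 2.47. Their log2 fold changes were 1.28 ± 0.19, 1.04 ± 0.18 and 0.97 ± 0.18, with adjusted p of 0.00171, 0.00326 and 0.00482. Stronger enrichment was seen in ogchi, the orosomucoid (alpha-1-acid glycoprotein) of the chicken, with 8.15 at 3489.8 and 4098 FPKM in LPS libraries against 1185.4 and 2136.7 FPKM in control libraries, and in PIT54, the hemoglobin-binding protein that takes the place of haptoglobin in chickens, with 7.51 over 1340 bases at 9453.4 and 9795.6 FPKM against 7124 and 8333 FPKM. The metallothionein MT4 had 4.65 at 4771.7 and 4861.9 FPKM in LPS libraries against 752 and 477 FPKM in control libraries (log2 fold change 3.00 ± 0.24, adjusted p = 0.000101). LEAP2, a liver antimicrobial peptide of the list, went the other way, at 225 and 234 FPKM in LPS libraries against 667 and 670 FPKM in control libraries (adjusted p = 0.000377), and had 2 LPS peaks of up to 24.7.

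A few acute phase messages had a peak in the LPS list and none in the control list. AVD, avidin, which binds biotin, stood at 2236 and 2343.7 FPKM in LPS libraries against 10.5 and 7.05 FPKM in control libraries (log2 fold change 7.89 ± 0.21, adjusted p = 2.62e-06), with a peak of 2.42 over 59 bases of its 3′ UTR. The table has another AVD entry at a mean of 4.8 FPKM without a peak, and reads of such copies may have been split. VNN1, a pantetheinase of oxidative stress, stood at 1613.8 and 1427.9 FPKM in LPS libraries against 74.4 and 63.5 FPKM in control libraries, with a peak of 1.42. Ex-FABP, a lipocalin that binds bacterial siderophores, stood at 432 and 958 FPKM in LPS libraries against 6.94 and 7.7 FPKM in control libraries, with a peak of 6.1 over 356 bases. Of all genes at their control levels, 48.1% (3 to 10 FPKM) and 63.9% (30 to 100 FPKM) had a control peak.

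Several genes that restrain NF-kB carried peaks. In the Toll-like receptor and NF-kB list, 20 of 36 members at 1 FPKM or more had an LPS peak (55.6%), against 42.8% of all genes there. At 10 to 100 FPKM it was 8 of 14, near the 57.3% of all genes there. Of 38 tested, 17 rose and 5 fell, against 10.7% and 31.4% of all tested genes. A peak was listed for 13 of the 17, against 58.3% of all raised genes. NFKBIA, the inhibitor that holds NF-kB in the cytoplasm, stood at 147 and 153 FPKM in LPS libraries against 6.08 and 10.6 FPKM in control libraries (log2 fold change 4.06 ± 0.24, adjusted p = 3.29e-05) and had a peak of 7.09 over 897 bases. TNIP1, which works with the ubiquitin editor A20 to damp NF-kB, stood at 415 and 343 FPKM in LPS libraries against 75.2 and 85.4 FPKM in control libraries (log2 fold change 2.22 ± 0.18, adjusted p = 0.000115); its 2 peaks covered 505 and 1335 bases, the larger one over 13 exon blocks with 16.5. TNIP2 had 4 LPS peaks and no control peak, at 96.7 and 114 FPKM in LPS libraries against 2.87 and 2.38 FPKM in control libraries. Of all genes at 1 to 3 FPKM in control livers, 26.9% had a control peak. TNFAIP3, A20 itself, had 3 LPS peaks, and ZC3H12A, an RNase that degrades cytokine messages, had 1 of 4.9. NFKB2, a precursor subunit of NF-kB, stood at 143 and 177 FPKM in LPS libraries against 17.3 and 25 FPKM in control libraries and had 2 peaks of 3.24 and 6.66. Raised members without a peak included TNIP3, at 29 and 50.5 FPKM in LPS libraries against 0.395 and 0 FPKM in control libraries, and the kinase IKBKE. TNIP3 and IKBKE had means of 39.7 and 21.5 FPKM in LPS livers. Of all genes in LPS livers, 60.5% had an LPS peak at 30 to 100 FPKM and 55.5% at 10 to 30 FPKM. At the top of the pathway, TLR4, the sensor of LPS, had no peak. An LPS peak was listed for 2.86% of all genes at its level (under 1 FPKM in LPS livers). At 1 to 3 FPKM, the class of its coreceptor LY96, the share was 17.3%. TLR4 was at 0.499 and 0.492 FPKM in LPS libraries against 2.07 and 2.43 FPKM in control libraries. It fell (log2 fold change -1.12 ± 0.22, adjusted p = 0.00617). Its coreceptor LY96, at a mean of 2.36 FPKM in LPS and 0.834 FPKM in control livers, had none either; it passed the test for a rise (adjusted p = 0.0158), but not without LPS replicate 1 or without LPS replicate 2 (adjusted p up to 0.0746).

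Among cytokine receptors and JAK-STAT feedback genes, 20 of 34 had a peak (58.8%), with 11 of the 12 members at 10 to 100 FPKM, where 57.3% of all genes had one. Of 32 tested, 15 rose and 3 fell, against 10.7% and 31.4% of all tested genes. A peak was listed for 13 of the 15, against 58.3% of all raised genes. SOCS1, which blocks JAK kinases, stood at 397 and 485 FPKM in LPS libraries against 10.6 and 9.4 FPKM in control libraries (log2 fold change 5.32 ± 0.18, adjusted p = 3.52e-06) and had a 3′ UTR peak of 5.66. SOCS3, which restrains IL-6 type signalling, stood at 289 and 383 FPKM against 42.3 and 16.6 FPKM (log2 fold change 3.60 ± 0.38, adjusted p = 0.000403) and had one of 15.8 over 448 bases. CISH, of the same family, had 17.3. STAT3, the transcription factor of the acute phase response, had 2 weak peaks, 2 and 1.32, at 210 and 208 FPKM in LPS libraries against 152 and 166 FPKM in control libraries, and it did not pass the test (adjusted p = 0.0877). Stat5 and IL22RA2, a soluble decoy receptor of IL-22 that stood at 21.8 and 16.2 FPKM in LPS libraries against 0.36 and 0.233 FPKM in control libraries, had none.

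Cytokines and chemokines mostly rose. Of 26 members at 1 FPKM or more, 9 had an LPS peak (34.6%), against 42.8% of all genes there. At 10 to 100 FPKM 5 of 10 did, near the 57.3% of all genes there. At 100 FPKM or more it was 3 of 6, against 64.3% of all genes there. Of 25 tested, 20 rose and 3 fell, against 10.7% and 31.4% of all tested genes. A peak was listed for 7 of the 20, against 58.3% of all raised genes. CCL4, a chemokine for monocytes, has 2 entries in the table: one at 143 and 117 FPKM in LPS libraries against 0.568 and 1.7 FPKM in control libraries had no peak, and the other, described as a chemokine-like ligand, at 59.6 and 48.9 FPKM against 1.35 and 3.76 FPKM, had 2 of up to 22.3. As near-identical copies their reads may have been split, so both are uncertain. CCL1, CCL20, which attracts lymphocytes and dendritic cells, the decoy receptor IL1R2, and IL18 also rose and had none. CCL20 stood at 58.7 and 69.2 FPKM in LPS libraries against 0.217 and 0.862 FPKM in control libraries (log2 fold change 5.43, adjusted p = 1.15e-05). IL1R2 stood at 44.5 and 45.4 FPKM against 0.439 and 1.05 FPKM, and IL18 at 40.2 and 32.3 FPKM against 2.57 and 1.4 FPKM. IL6, IL8, IL10, IL12B and IL22 were at means under 10 FPKM and had none. Over all genes, an LPS peak was listed for 2.86% under 1 FPKM, 17.3% at 1 to 3 FPKM and 40.2% at 3 to 10 FPKM. IL6 stood at 1.27 and 2.07 FPKM in LPS libraries against 0.0614 and 0 FPKM in control libraries, below the filter for a test. With peaks were CCL19, which guides lymphocytes, at 289 and 184 FPKM in LPS libraries against 9.18 and 11.3 FPKM in control libraries with 2 peaks of 2.37 and 5.34; TNFSF10, the death ligand TRAIL, at 135 and 135 FPKM against 21.3 and 23.9 FPKM with 9.78; and CSF3, the growth factor of granulocytes, at 29.8 and 36.5 FPKM against 3.11 and 1.37 FPKM with 2 peaks of up to 27.6.

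In the interferon response, 22 of 33 members had a peak (66.7%). At 10 to 100 FPKM 16 of 24 had one, against 57.3% of all genes there, and at 100 FPKM or more 6 of 6, against 64.3%. Of 32 tested, 23 rose and 2 fell, against 10.7% and 31.4% of all tested genes. A peak was listed for 17 of the 23, against 58.3% of all raised genes. OAS*A, the sensor of double-stranded RNA that activates RNase L, stood at 492 and 701 FPKM in LPS libraries against 57.4 and 30.5 FPKM in control libraries (log2 fold change 3.78 ± 0.31, adjusted p = 0.000118) and had 2 peaks of 5.44 and 1.76, of which the weaker shared no base with a control peak. IRF1, a transcription factor of the response, had 2.33, RSAD2 (viperin) had 5.55, and ZNFX1, an RNA helicase, had 4 peaks of up to 33.1. HELZ2 had 4 LPS peaks and none in the control list, at 25.7 and 38.4 FPKM in LPS libraries against 4.2 and 4.46 FPKM in control libraries. Of all genes at 3 to 10 FPKM in control livers, 48.1% had a control peak. B2M, the light chain of MHC class I, had the lowest enrichment of the whole list, 1.17 over 114 bases, at 1395 and 1353.9 FPKM in LPS libraries against 862 and 1332.4 FPKM in control libraries. Mx, an antiviral GTPase, stood at 22.7 and 23.6 FPKM in LPS libraries against 3.47 and 1.39 FPKM in control libraries (log2 fold change 2.89, adjusted p = 0.000345) and had no peak, nor did NMI.

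Effector genes of nitric oxide and bacterial killing had a peak in 7 of 22 members (31.8%), against 42.8% of all genes at 1 FPKM or more, and in 5 of 9 at 100 FPKM or more, against 64.3%. INOS, the inducible nitric oxide synthase, stood at 144 and 144 FPKM in LPS libraries against 1.86 and 0.866 FPKM in control libraries (log2 fold change 5.97 ± 0.23, adjusted p = 6.86e-06) and had no peak. SLC6A14, an amino acid transporter, stood at 471 and 662 FPKM against 4.18 and 3.23 FPKM (log2 fold change 6.90 ± 0.22, adjusted p = 2.62e-06) and had none, and SOD2, the mitochondrial superoxide dismutase, had none at 286 and 270 FPKM against 312 and 417 FPKM. By contrast, HMOX1, which breaks down heme, had 4 weak peaks of 1.52 to 3.1 at 448 and 411 FPKM in LPS libraries against 161 and 149 FPKM in control libraries. IRG1, which makes itaconate, had 3 of up to 4.03, and NOXO1, an oxidase organiser, had 1 of 1.66 at 260 and 247 FPKM against 8.79 and 3.7 FPKM. Of this list 10 of 22 tested rose and 3 fell, against 10.7% and 31.4% of all tested genes. A peak was listed for 7 of the 10, against 58.3% of all raised genes.

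**Figure D4:**
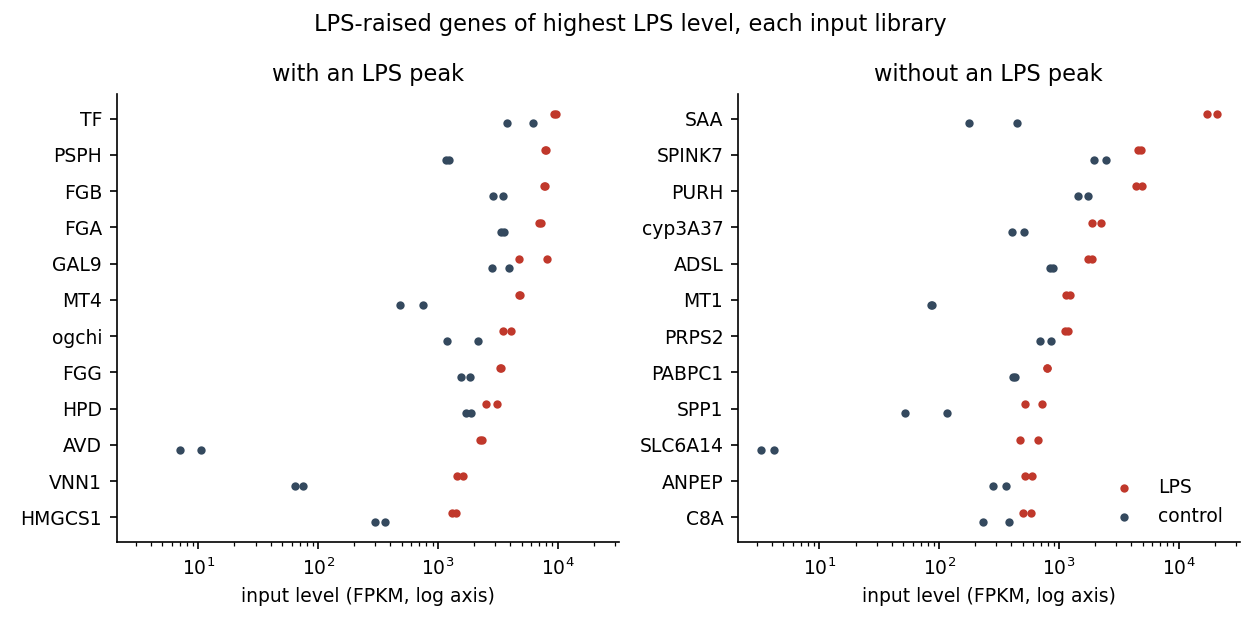
Input level (FPKM, log axis) in each LPS library (red) and control library (dark). Shown are the 12 symbol-bearing LPS-raised genes of highest LPS level with an LPS peak (left) and without one (right). SAA, named from its description, was counted among them. Genes entered only if both LPS libraries lay outside the control range, so the groups could not overlap. Both panels hold very abundant genes, such as TF and FGB on the left and SAA and SPINK7 on the right.

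A larger share of the raised genes than of the lowered genes had an LPS peak, and their levels differed too. Of the 1014 raised genes, 591 had an LPS peak (58.3%), against 35.9% of the 2982 lowered ones, 40.5% of the 5488 without a call and 41% of all 9484 tested. Raised genes had a median LPS level of 18 FPKM and lowered ones 6.13 FPKM. Among genes at 10 to 100 FPKM in LPS livers, the shares were 67.7% of 530 raised, 53.2% of 1015 lowered and 56.5% of 1727 without a call. In the control list, read at 10 to 100 FPKM in control livers, they were 67.4% of 298 raised, 64.4% of 1549 lowered and 59.9% of 1858 without a call. The genes in this class differ between the lists, and these shares were not tested against each other. Of all genes with an LPS peak, 8.49% had no control peak, and of all with a control peak, 27.6% had no LPS peak. Of the raised genes, 444 had a peak in both lists, 147 in the LPS list alone, 16 in the control list alone and 407 in neither. The 147 had a median of 16.2 FPKM in LPS and 2.84 FPKM in control livers; the 444 had 32.5 and 10.5 FPKM. Of the lowered genes, 1051 had a peak in both lists, 20 in the LPS list alone and 636 in the control list alone, and these 636 had a median of 3.55 FPKM in LPS and 10.1 FPKM in control livers. Since the same input libraries give the calls and the denominators of the peaks, these shares are a description.

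Other raised messages of high level without a peak were SPINK7, ovomucoid, a protease inhibitor at 4539.3 and 4842.2 FPKM in LPS libraries against 1973.6 and 2441.8 FPKM in control libraries, and cyp3A37, a drug-metabolising cytochrome, at 1871.1 and 2257.3 FPKM against 514 and 405 FPKM. PABPC1, the poly(A)-binding protein, stood at 785 and 786 FPKM against 414 and 429 FPKM, and SPP1, osteopontin, at 522 and 717 FPKM against 52.2 and 117 FPKM. With a peak, PSPH, the last enzyme of serine synthesis, stood at 8019.2 and 7806 FPKM in LPS libraries against 1233.6 and 1158.5 FPKM in control libraries (log2 fold change 2.73 ± 0.17, adjusted p = 3.88e-05), with 2.17, and HMGCS1, which makes HMG-CoA for sterols, stood at 1424.2 and 1309.4 FPKM against 359 and 300 FPKM, with 1.9.

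Lipid and cholesterol synthesis fell broadly. Of 43 tested members 37 fell and 4 rose, and with equal medians 35 fell and 4 rose. Of all tested genes, 31.4% fell and 10.7% rose as deposited. In LPS livers 17 of 42 members at 1 FPKM or more had a peak (40.5%), against 42.8% of all genes there. At 10 to 100 FPKM it was 11 of 27, against 57.3%. In the control list 32 of the same 42 had one, at levels that were mostly higher. Of all genes with a control peak, 27.6% had no LPS peak. The part that level has in this difference was not tested. SREBP-1 is the master transcription factor of fatty acid synthesis. It stood at 18.7 and 21.3 FPKM in LPS libraries against 173 and 164 FPKM in control libraries (log2 fold change -3.02 ± 0.17, adjusted p = 2.49e-05). It had 1 LPS peak, of 23.8 in its first exon, and 2 control peaks of up to 134. SCAP, which escorts SREBPs to the Golgi, fell to 14.9 and 15.1 FPKM in LPS libraries, against 85.9 and 85 FPKM in control libraries, and had 4 peaks of up to 21.6. FASN and ACACA, the enzymes that build fatty acids, had 2 each. SCD, which desaturates them, stood at 92.6 and 50.4 FPKM in LPS libraries against 1261.2 and 1257.8 FPKM in control libraries (adjusted p = 4.08e-05) and had no LPS peak but 2 control peaks, and acl, ATP-citrate synthase, was alike with 0 and 2. FDPS, which makes farnesyl diphosphate for sterols, had none in either list. THRSPB, which promotes lipogenesis, fell to 15 and 8.94 FPKM in LPS libraries, against 2086.8 and 1872.1 FPKM in control libraries. THRSP has 2 entries. The first fell to 9.81 and 9.2 FPKM in LPS libraries, against 892 and 1919.4 FPKM in control libraries. The second fell to 389 and 190 FPKM in LPS libraries, against 5915 and 4944.3 FPKM in control libraries. THRSPB and these 2 entries had no LPS peak, and 1, 0 and 2 control peaks in that order. They are near copies of each other, so their values are uncertain.

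Among other genes with large falls was PPP1R3B, which brings a phosphatase to glycogen. It fell to 1.18 and 1.13 FPKM in LPS libraries, against 108 and 60.5 FPKM in control libraries (log2 fold change -5.25 ± 0.27, adjusted p = 2.13e-05). PPP1R3B had 1 LPS peak, of 6.74, and 2 control peaks of up to 14.3. CYP1A1, which oxidises aromatic compounds, fell to 74 and 29.1 FPKM in LPS libraries, against 1296.6 and 1547.4 FPKM in control libraries, with 7.33, and ANGPTL4, an inhibitor of lipoprotein lipase, fell to 26.2 and 30.9 FPKM, against 542 and 385 FPKM, with 3 LPS peaks and 5 control peaks. CYP1A4 and CYP7A1, which starts bile acid production from cholesterol, had a control peak and no LPS peak. Their mean LPS levels were 6.4 and 0.188 FPKM. An LPS peak was listed for 40.2% of all genes at 3 to 10 FPKM and 2.86% of those under 1 FPKM. CYP7A1 fell to 0.143 and 0.234 FPKM in LPS libraries, against 25.3 and 32.2 FPKM in control libraries. Its log2 fold change was -4.64 ± 0.21 (adjusted p = 1.15e-05). Near-identical CYP1A copies may share reads. In the drug and bile acid list 10 of 30 members had an LPS peak (33.3%) and 17 a control peak. Of 32 tested, 17 fell and 4 rose as deposited, against 31.4% and 10.7% of all tested genes, and 9 fell with equal medians. Of all genes with a control peak, 27.6% had no LPS peak. At 10 to 100 FPKM 5 of 15 of the list had an LPS peak, against 57.3% of all genes there. Among its members CYP2D6 had 53.2 in the 5′ UTR and CYP27A1 22 in the 3′ UTR.

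Immediate early and stress transcription factors had an LPS peak in 20 of 24 members (83.3%), and in 9 of 11 at 10 to 100 FPKM, where 57.3% of all genes did. In the control list 21 members had a peak. CEBPB, a factor that drives acute phase genes, stood at 822 and 955 FPKM in LPS libraries against 273 and 328 FPKM in control libraries (log2 fold change 1.56 ± 0.18, adjusted p = 0.000615) and had 26.2 over 987 bases of its single exon. ATF4, of the amino acid stress response, had 21 over 60 bases of the 5′ UTR and 7.93 in the 3′ UTR at 497 and 571 FPKM against 666 and 685 FPKM. Of 24 tested, 8 rose, all with a peak, and 7 fell, 5 with a peak, among them EGR1, FOS and MYC. Over all genes, 58.3% of the raised and 35.9% of the lowered had an LPS peak. Liver transcription factors and nuclear receptors had an LPS peak in 14 of 24 (58.3%), and in 20 of 24 a control peak. Of all genes with a control peak, 27.6% had no LPS peak. At 10 to 100 FPKM 8 of 11 of the list had an LPS peak, against 57.3% of all genes there. Of 25 tested, 10 fell and 3 rose, against 31.4% and 10.7% of all tested genes. HNF4alpha, which maintains hepatocyte identity, fell to 1.66 and 3.8 FPKM in LPS libraries, against 41.9 and 55.1 FPKM in control libraries. Its log2 fold change was -3.78 ± 0.30 (adjusted p = 0.0001). It had a control peak but no LPS peak, at a mean LPS level of 2.73 FPKM. An LPS peak was listed for 17.3% of all genes at 1 to 3 FPKM in LPS livers. FXR, the bile acid receptor, rose to 92.2 and 91.6 FPKM in LPS libraries, against 35.9 and 33.9 FPKM in control libraries. It had a control peak of 1.57 and no LPS peak.

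Of the m6A machinery itself, 18 of 20 members at 1 FPKM or more had a peak (90%), at a median level of 8.69 FPKM. In the control list 18 members had one as well. At 10 to 100 FPKM 8 of 8 had an LPS peak, against 57.3% of all genes there, and 40.2% of all genes had one at 3 to 10 FPKM. METTL14, a core subunit of the writer, stood at 4.94 and 5.65 FPKM in LPS libraries against 3.81 and 4.47 FPKM in control libraries with a peak of 6.04, and WTAP at 24.7 and 25.4 FPKM against 18.3 and 16.7 FPKM with 2 peaks of 2.84 and 5.02. Neither passed the test, with adjusted p of 0.275 and 0.0512. ZC3H13, a subunit that keeps the writer in the nucleus, had 3 peaks of up to 123, and RBM15, which recruits the writer, had 3 of up to 31.6. The reader YTHDF2, which leads marked messages to decay, had 3 peaks of 5.51 to 11.9 at 15.4 and 15.7 FPKM in LPS libraries against 15.5 and 17.9 FPKM in control libraries. The eraser ALKBH5 had 2 of up to 6.2 at 25.1 and 17.4 FPKM in LPS libraries against 32.8 and 38.4 FPKM in control libraries, and FTO was near 0 in both groups with none. Of 20 tested, 5 fell and 1 rose as deposited, against 31.4% and 10.7% of all tested genes, and with equal medians 0 fell and 3 rose. IGF2BP1 and YTHDC2, both readers under 3 FPKM in LPS libraries, were the members without a peak.

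Chromatin modifiers had a peak in 34 of 43 members (79.1%) and 85 peaks in all at a median of 4.56 FPKM, where 40.2% of all genes (3 to 10 FPKM) had one. In the control list 35 members had a peak. BRD2, a reader of acetylated histones, had 5 peaks of 1.56 to 7.01, and HDAC2, a histone deacetylase, had 1 of 5.79; KAT2B, an acetyltransferase, had none. Fatty acid oxidation had one in 21 of 30 members (70%), with ACADL at 93.9 and ETFA at 63.9. At 100 FPKM or more it was 12 of 15, against 64.3% of all genes there. At 10 to 100 FPKM it was 8 of 14, near the 57.3% of all genes there. Of 30 tested, 5 fell and 4 rose. Glucose and amino acid metabolism had a peak in 18 of 34 (52.9%). At 10 to 100 FPKM it was 6 of 11, against 57.3% of all genes there. At 100 FPKM or more it was 11 of 16, against 64.3%. Of 34 tested, 13 fell and 6 rose. Of all tested genes, 31.4% fell and 10.7% rose, and 42.8% of all genes at 1 FPKM or more had a peak. Of the cell type markers at 1 FPKM or more, 11 of 14 for hepatocytes and 8 of 12 for macrophages had an LPS peak. It was 3 of 5 for erythrocytes and thrombocytes. At 100 FPKM or more 11 of 13 hepatocyte markers had one, against 64.3% of all genes there. At 10 to 100 FPKM it was 6 of 8 for macrophages and 2 of 2 for erythrocytes and thrombocytes, against 57.3%. At 1 FPKM or more it was 2 of 10 for T, NK and B cells, 1 of 6 for heterophils and 5 of 20 for endothelial and stellate cells. The medians of these last 3 lists were 2.18, 5.82 and 5.58 FPKM. Of all genes, 17.3% had a peak at 1 to 3 FPKM and 40.2% at 3 to 10 FPKM. MARCO, a scavenger receptor of macrophages, had 14.2 over 13 exon blocks at 93.4 and 77.5 FPKM in LPS libraries against 161 and 161 FPKM in control libraries, and it fell (log2 fold change -0.91 ± 0.17, adjusted p = 0.00512).

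**Figure D5:**
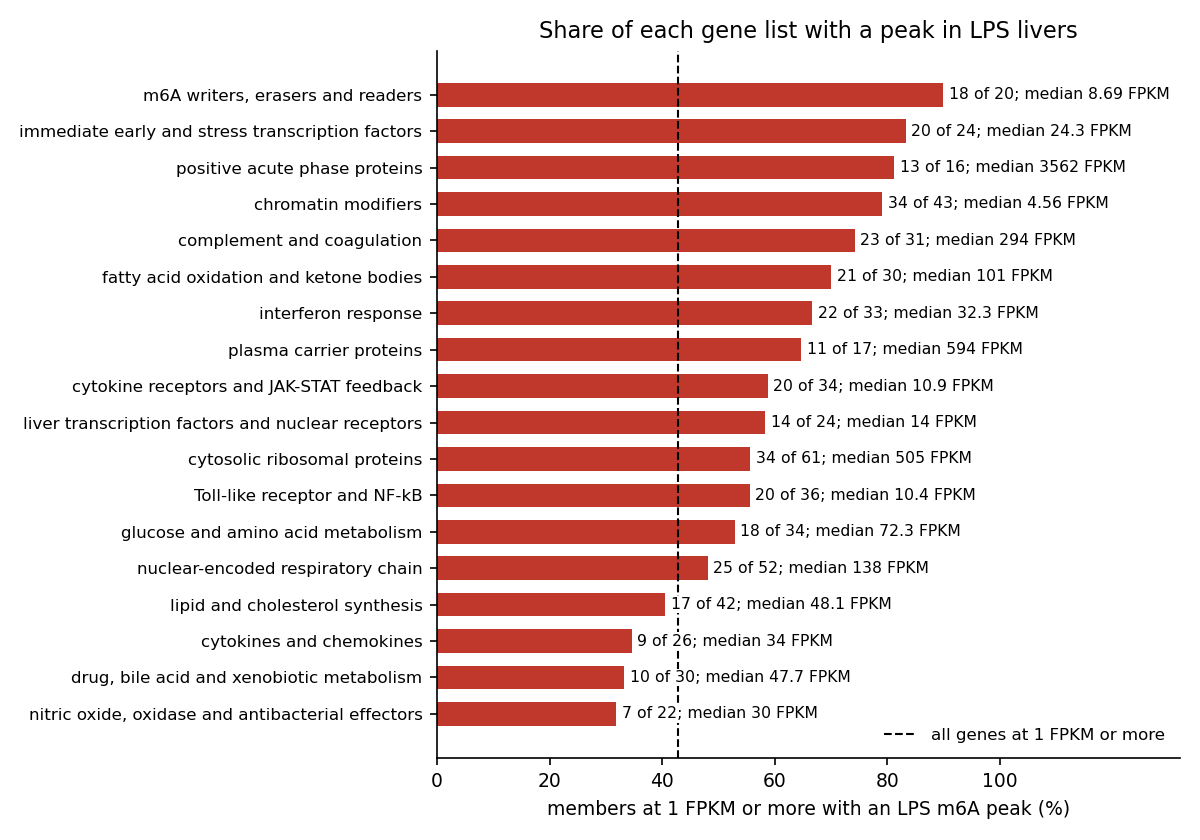
Share of the members at 1 FPKM or more of each gene list that had an LPS m6A peak (bars), with the count and the median LPS level beside each bar; the dashed line is the 42.8% of all 9024 genes at that level. The m6A machinery (18 of 20) and the immediate early factors (20 of 24) stand highest, and cytokines (9 of 26) and nitric oxide and antibacterial effectors (7 of 22) are below the line. Members of these lists with a control peak numbered 18, 21, 8 and 5, in the same order.

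The LPS peaks mostly lay where control livers also had one. Of the 5938 LPS peaks, 5204 (87.6%) shared at least 1 base on the same strand with a control peak, and 5006 of 7813 control peaks (64.1%) shared one with an LPS peak. By gene, 3653 were in both lists, which is 91.5% of the genes with an LPS peak and 72.4% of those with a control peak; 339 genes were in the LPS list alone and 1395 in the control list alone. The 734 LPS peaks that shared no base were weaker and shorter, with a median enrichment of 2.925 and 121 bases, against 5.38 and 240 bases for the shared ones. In 3′ UTRs lay 28.3% of them, against 44.1% of the shared ones. With 1 list for each treatment, no difference between LPS and control peaks could be tested against the spread between birds.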

How the data were processed

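Liver RNA of LPS-injected and PBS-injected broilers was poly(A)-selected, fragmented and sequenced as input or after m6A immunoprecipitation, with strand marked by dUTP, per the labels' protocols. Libraries were placed into 4 groups of 2 by labelled treatment and library kind, and what the files call Treat was read as LPS, since the labels name no other treatment. No label ties a library to its own bird, so p-values may measure technical spread. HISAT2, StringTie, HOMER and ChIPseeker are named without roles in the submitters' processing notes; build, peak caller, filters and versions: not given in the sources used here. An IgG control of the protocol was not analysed here.

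The authors deposited FPKM for 13427 genes in the 4 input libraries, and 1 peak list for each treatment with a ratio (fold enrichment of IP over input), a p-value, strand, exon blocks and region for each peak. FPKM are not counts, and depth is unknown. Peaks were joined to genes by Ensembl ID. Symbols are those of the table, or for 49 genes a RefSeq table of another assembly, used for names only. SAA was named from the description of its entry, which had no gene symbol. AVD was written in place of a table label that is not a gene symbol.

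FPKM were compared with limma 3.58.1 (R 4.3.3) on log2(FPKM + 1), which understates changes of low genes, with a trended prior, 2 LPS against 2 control libraries without a block, for 9484 genes averaging 1 FPKM or more over the 4 libraries. Calls needed a two-sided Benjamini-Hochberg adjusted p under 0.05, and errors of fold changes are SE. Overlaps needed 1 base on the same strand. Python 3.11.15, numpy 2.4.6, pandas 2.3.3 and scipy 1.17.1 did the rest. The fit was also run on simulated data drawn independently for each gene. Those data held no shift shared by a whole library, so the simulation could not check the calls against one.

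The peaks described and the 24 gene lists (659 genes of 891 names matched to the table) were chosen with earlier results of these data known. Genes were named from the 15 genes of highest LPS level with and without a peak, the 12 raised genes of highest LPS level and the 8 lowered genes of largest fall with and without one, the 8 genes with most peaks, the 8 most enriched peaks, up to 3 members of each list with and without a peak, and a fixed set (SAA, ALB, NFKBIA, SOCS1, SOCS3, INOS, IL6, TLR4, METTL14, WTAP, FTO, ALKBH5, YTHDF2). Raised and lowered genes named this way also needed both LPS libraries outside the control range. Apart from SAA, genes known only by an ID, a locus number or an open reading frame number were left out of this choice. C6orf132 and other list members named were chosen after their values were seen. Alternatives were the pseudocount, the filter, equal medians, a replicate block, each input library left out, stricter peaks, other level limits and a stricter overlap. No genome of the files' build was used here, so no sequence is shown. Some genes are not reported here.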

Additional observations from a re-analysis of the deposited data

How the results depend on the processing

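The share of genes at 1 FPKM or more with an LPS peak (42.8%) became 40% with peaks at p up to 1e-10, 25.4% with the more enriched 50% of peaks, 29.7% over every gene of the table and 54.5% from 5 FPKM. The share of abundant genes (64.3%) became 30.7% with the more enriched 50% of peaks. The correlation of enrichment with level (-0.16) was -0.20 with peaks at p up to 1e-10, -0.20 with the median enrichment of a gene and -0.23 with every peak as a point. With the more enriched 50% of peaks it was 0.01, of the other sign and very small. That setting cuts the range of the enrichments being correlated, so it cannot check the value of -0.16. The raised genes' share (58.3%) became 32.3% with the more enriched 50% of peaks and 54.4% without the filter. The lowered genes' share (35.9%) became 33.1% at p up to 1e-10, 21.7% with the more enriched 50%, 32.4% without the filter and 33.1% with equal medians. Requiring that 50% of each span be shared left 63% of LPS peaks overlapping a control peak. Equal medians gave 1594 lowered genes in place of 2982. Leaving out each library in turn gave 800 to 940 raised and 2106 to 2430 lowered genes, with 34.4% to 38.6% of the lowered ones methylated.

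Same-numbered input libraries did not deviate together (correlation 0.029 over 9484 genes), so the labels' numbers were not read as pairs; with the replicate block 1071 genes rose, 3150 fell, and 58% and 35.3% of them had an LPS peak. Of 103 genes with a call named by the rule, 27 lost it in at least 1 alternative and 0 turned direction. Among them are TF, GAL9, HPD, PRPS2, ANPEP, C8A, LY6E, SPP2, TTR, ALKBH5 and YTHDC2; of list members named beyond the rule, LY96 and ZC3H13 also lost theirs in some. The cause of these shifts was not tested, beyond fewer peaks or fewer libraries entering by construction. The depth of the IP libraries is unknown, so a gene without a peak is a gene without a listed peak.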

Other observations

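Peaks were also listed for genes near the floor of expression. Of the 4403 genes under 1 FPKM in LPS livers, 126 had an LPS peak; 99 of them also had a control peak, 57 had a control mean of at least 1 FPKM, and 3 were listed at 0 in both LPS libraries. METRN had a peak of 356 at 0.503 and 0.355 FPKM in LPS libraries against 2.91 and 1.85 FPKM in control libraries. ARHGAP27 had one of 255 at 0.709 and 0.693 FPKM in LPS libraries against 2.55 and 4.03 FPKM in control libraries.

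Of 11 enzymes of purine metabolism, a group chosen after its values were seen, 9 had no LPS peak. Of all genes, 57.3% had a peak at 10 to 100 FPKM and 64.3% at 100 FPKM or more. PURH, which completes the purine ring, stood at 4392.1 and 4956.6 FPKM in LPS libraries against 1731.2 and 1433.2 FPKM in control libraries (log2 fold change 1.57 ± 0.19, adjusted p = 0.000716). ADSL stood at 1728 and 1866.2 FPKM against 896 and 846 FPKM (log2 fold change 1.04 ± 0.17, adjusted p = 0.00258). Neither had a peak in either list. GART, which acts in earlier steps of the pathway, had 1 control peak of 1.76 and no LPS peak. It stood at 89.8 and 77 FPKM in LPS libraries against 150 and 140 FPKM in control libraries. Its log2 fold change was -0.80 ± 0.17 (adjusted p = 0.00844). GMPS, which makes GMP, stood at 10.7 and 10.5 FPKM against 19.4 and 18.5 FPKM (log2 fold change -0.78 ± 0.17, adjusted p = 0.00999), with a peak of 2.64. GART and GMPS did not pass the test with equal medians (adjusted p of 0.0662 and 0.0696). PRPS2 was higher (adjusted p = 0.0337, lost in 4 of 8 alternatives), and PPAT, PAICS, IMPDH2, ADSS and ADSSL1 did not pass the test (log2 fold changes of -0.52, -0.46, -0.19, 0.59 and -0.48). XDH, which breaks purines down to uric acid, the main nitrogen waste of birds, had 3 LPS peaks.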
